A study of Arabidopsis thaliana with 8 samples.

Results

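The auxin receptors of *Arabidopsis thaliana* are encoded by the 6 TIR1/AFB genes, which were chosen by locus as *TIR1* (AT3G62980), *AFB1* (AT4G03190), *AFB2* (AT3G26810), *AFB3* (AT1G12820), *AFB4* (AT4G24390) and *AFB5* (AT5G49980). They were 6 of the 33518 loci in the count table, and all 6 were among the 20415 loci that passed the filter on low counts. The rule that names them uses no measured value, although they were proposed with earlier results of these data known. In *iaa3* the level of *AFB1* was 0.512 times that of wild type with BL and 0.532 times in mock, that of *AFB2* was 0.764 and 0.784 times, and no difference between the genotypes passed the test for *TIR1*. BL raised *AFB5* in wild type to 1.299 times its mock level, and no receptor gene passed the test for BL in *iaa3*. No receptor gene passed the test of a difference in BL response between the genotypes either, so a rise particular to wild type was not shown.

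TIR1/AFB proteins are F-box subunits of SCF ubiquitin ligases. Auxin fits between the receptor and an Aux/IAA repressor, the repressor is ubiquitinated and degraded, and ARF transcription factors that it held are released. TIR1 was the first of these receptors to be identified, AFB1 is known for fast auxin responses of roots, and AFB4 and AFB5 for the perception of picloram-type auxins. The microRNA miR393 cleaves the transcripts of some of these receptors and so limits auxin sensitivity.

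RNA-Seq was performed on whole etiolated seedlings of *iaa3*, which carry the *iaa3/shy2-2* allele, and of wild type (Col-0). The allele is a gain-of-function mutation that stabilizes the Aux/IAA repressor IAA3, so that the step after the receptor is blocked for this repressor. All seedlings, controls included, spent 5 days in darkness with the BR biosynthesis inhibitor propiconazole (PPZ) at 2 µM, and for the last 4 hr received either 100 nM brassinolide (BL), an active BR, or mock solution. By the study's methods *iaa3* is in the Col-0 background, but how the allele was brought into it is not given in the sources used here, so effects of the allele and of other differences between the strains cannot be told apart. The groups were *iaa3* BL, *iaa3* mock, wild type BL and wild type mock, with 2 libraries in each. No source states that the libraries of a group came from separate cultures, so p-values measure the spread between these libraries, which may be technical. In whole seedlings, fewer cells of a type and less RNA per cell cannot be told apart.

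Total counts ranged from 18107519 to 23183988 per library, and within each group the pair of libraries differed beyond counting noise (chi-square per degree of freedom of 4.06 to 12.6), so each was kept as a sample. *IAA3* itself had 198 and 259 counts in *iaa3* BL, 306 and 244 in *iaa3* mock, 2874 and 2698 in wild type BL, and 997 and 1128 in wild type mock, a difference between the genotypes that separates all libraries as labelled. The mutation acts on the protein, so this level is not a check of the allele. The dark-grown marker *PORA*, a protochlorophyllide oxidoreductase, had 425.7 to 1170 CPM (counts scaled to library size) over the 8 libraries, while the summed level of *RBCS1A*, *LHCB1.1* and *LHCB1.3*, genes of light-grown leaves, was 3007 to 4554 CPM. *HLS1*, the other dark-grown marker listed, had 23.7 to 53.8 CPM and did not move with *PORA*. For BL in wild type the log2 fold change was 0.81 for *PORA* and −0.98 for *HLS1*. Between the genotypes with BL it was −1.13 for *PORA* and 0.33 for *HLS1*, and each of these values passed the test (edgeR). Xylem markers were lower in *iaa3* in every library, hypoxia markers were highest in *iaa3* BL, and heat markers were high in *iaa3* BL only, and their values stand beside the results below.

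The receptor transcripts differ in the site that miR393 pairs with, and the sites are shown because miR393 is a known regulator of members of this family. The microRNA is encoded at 2 loci, *MIR393A* (chromosome 2, 16652111 to 16652132 for the mature arm, plus strand) and *MIR393B* (chromosome 3, 20691657 to 20691678, plus strand). All coordinates and sequences are from RefSeq's TAIR10.1 assembly. The mature arms are identical, with the seed (bases 2 to 8) in capitals:
ath-miR393a-5p: uCCAAAGGgaucgcauugaucc
ath-miR393b-5p: uCCAAAGGgaucgcauugaucc
In the sites of *TIR1* (chromosome 3, 23273727 to 23273748, minus strand, exon 3), *AFB1* (chromosome 4, 1405341 to 1405362, minus strand, exon 3), *AFB2* (chromosome 3, 9870237 to 9870258, plus strand, exon 3) and *AFB3* (chromosome 1, 4369085 to 4369106, minus strand, exon 4), capitals mark the bases that do not pair with miR393 by Watson-Crick rules:
TIR1: gAGAcaatgcgatccctttgga
AFB1: gAGAcCatgcgatccctttgga
AFB2: gAaAcaatgcgatccctttgga
AFB3: gAaAcaatgcgatccctttgga
All 4 sites lie inside the coding sequence and pair with the whole seed. *AFB2* and *AFB3* have the same site, with 2 unpaired bases, *TIR1* has 3 and *AFB1* has 4, 1 of which is a G:U pair in *TIR1* and in *AFB1*. The stretches of *AFB4* (chromosome 4, 12614106 to 12614127, minus strand) and *AFB5* (chromosome 5, 20334605 to 20334626, minus strand) that align with these sites are:
AFB4: TCCAATatgAgGtTTGtttggT
AFB5: TACAACatgAgGtTTGtttgga
They hold 12 and 11 unpaired bases, 2 of them opposite the seed in each. G:U pairs are among the unpaired bases of both stretches, also opposite the seed. The best match elsewhere in these transcripts had 7 unpaired bases in *AFB4* and 8 in *AFB5*.

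The genes are spread over chromosomes 1, 3, 4 and 5. *TIR1* spans 23273065 to 23276630 on chromosome 3 (minus strand, 3 exons), *AFB2* spans 9867652 to 9870782 on the same chromosome (plus strand, 3 exons), and *AFB5* spans 20333897 to 20336671 on chromosome 5 (minus strand, 3 exons). No other annotated gene overlaps these. *AFB1* (chromosome 4, 1404887 to 1407402, minus strand, 3 exons) shares 474 bases with genes on the plus strand, among them AT4G03180. *AFB3* (chromosome 1, 4368760 to 4371298, minus strand, 4 exons) shares 701 bases with AT1G12810 and a non-coding RNA, and *AFB4* (chromosome 4, 12613076 to 12616238, minus strand, 3 exons) shares 644 bases with AT4G24380. No source says that strand was used in counting, so reads from these stretches cannot be assigned to a strand. AT4G03180 differed from wild type by 0.20 with BL and 0.23 in mock on the log2 scale, where *AFB1* was at −0.97 and −0.91. AT1G12810 differed by 0.19 with BL and −0.11 in mock, where *AFB3* was at −0.16 and −0.10, and AT4G24380 by 0.80 and 0.32, where *AFB4* was at −0.31 and −0.02. The coding sequences of *AFB2* and *AFB3* are 82.1% identical and those of *AFB4* and *AFB5* 80.5%, *TIR1* and *AFB1* share 69.7%, and the other pairs 57.3% to 64.7%. The longest identical run between any pair was 38 bases and was found in *AFB4* and *AFB5*, and the treatment of reads that match several loci is not given in the sources used here.

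Levels were compared between genes as CPM per kb of exon, which corrects for transcript length. The stretches that *AFB1*, *AFB3* and *AFB4* share with other genes were not taken out of that length. Whether reads there were counted is not known. The levels of these genes relative to *TIR1*, *AFB2* and *AFB5*, and so their places in the order and their shares, are therefore uncertain. *TIR1* was the most abundant receptor transcript in every group, at 72.5 and 72.8 CPM per kb in *iaa3* BL, 66.2 and 60.9 in *iaa3* mock, 72.4 and 69.99 in wild type BL, and 71.7 and 64.6 in wild type mock. It ranked 925th of the tested genes by mean log2 CPM, and its highest library was 1.19 times its lowest, the narrowest range of the family. *AFB4* was the least abundant, at 4.54 and 4.68 CPM per kb in *iaa3* BL, 4.73 and 4.42 in *iaa3* mock, 5.79 and 5.66 in wild type BL, and 4.63 and 4.63 in wild type mock, and ranked 10505th. The other receptors lay between 19.6 and 48.1 CPM per kb. *AFB1* had the widest range, with a highest library 2.14 times its lowest, followed by *AFB2* (1.44), *AFB5* (1.37), *AFB4* (1.31) and *AFB3* (1.26).

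The order of the middle receptors differed between groups. In *iaa3* BL it ran *AFB5*, *AFB3*, *AFB2*, *AFB1*, and in *iaa3* mock *AFB5*, *AFB2*, *AFB3*, *AFB1*. In wild type BL it ran *AFB5*, *AFB1*, *AFB2*, *AFB3*, and in wild type mock *AFB2*, *AFB1*, *AFB5*, *AFB3*. Neighbours in these orders did not overlap in their 2 libraries, except *AFB2* and *AFB3* in *iaa3* mock. That separation does not cover the uncertainty from the shared stretches of *AFB1* and *AFB3*. *AFB1* was thus the fifth receptor by level in both *iaa3* groups and the third in both wild type groups. With coding in place of exon length, *AFB1* became the fourth in wild type BL, at a mean of 55.4 against 58.3 CPM per kb for *AFB2*, and *AFB2* stood above *AFB3* in *iaa3* BL, at 44.5 against 40.9.

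**Figure D1:**
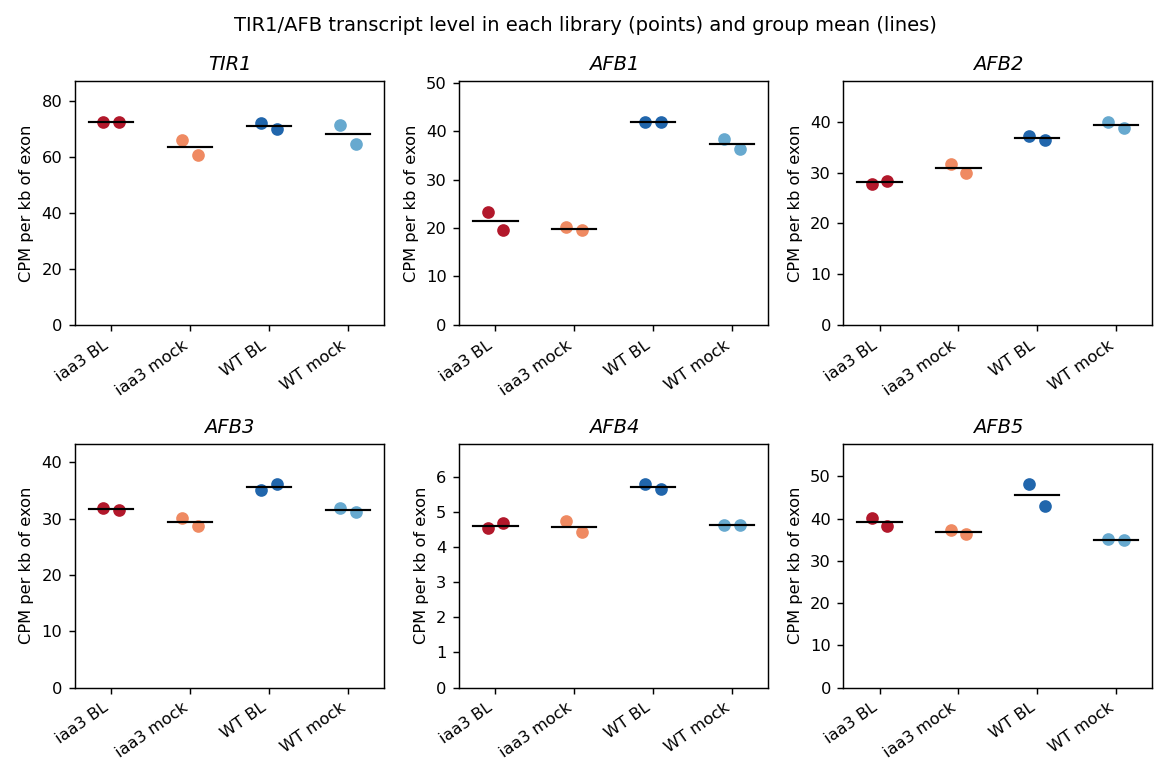
Transcript level of each TIR1/AFB gene in CPM per kb of exon (vertical axis, from 0, its own scale for each gene) in the 4 groups, with 1 point per library and a line at the mean of 2 libraries. *AFB1* lies between 19.6 and 23.3 in the *iaa3* libraries and between 36.4 and 41.9 in the wild type libraries, while *TIR1* lies between 60.9 and 72.8 over all 8 libraries.

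The genotypes were compared to ask how the transcripts of the receptors themselves differ in the strain with stabilized IAA3. *AFB1* had 944 and 915 counts in *iaa3* BL and 2177 and 2177 in wild type BL, and in mock 1050 and 1002 counts in *iaa3*, below the 1967 and 2120 in wild type. Per length these were 23.3 and 19.6 CPM per kb in *iaa3* BL against 41.9 and 41.8 in wild type BL, and 20.2 and 19.6 in *iaa3* mock against 38.4 and 36.4 in wild type mock. All *iaa3* libraries lay below all wild type libraries, whatever the treatment. With BL the log2 fold change of *AFB1* was −0.97 (standard error 0.08, 95% interval −1.15 to −0.79, adjusted p = 3.97e-06, edgeR's quasi-likelihood F test, Benjamini-Hochberg adjusted). In mock the log2 fold change was −0.91 (standard error 0.08, 95% interval −1.09 to −0.73, adjusted p = 1.35e-05, same edgeR test). *AFB1* was the only receptor gene that also met the study's threshold of 1.5-fold with an unadjusted p-value under 0.01, in both comparisons. That threshold was met in the lower direction by 13.8% of tested genes with BL and by 9.48% in mock.

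*AFB2* fell in *iaa3* as well, by a smaller amount. It had 1327 and 1561 counts in *iaa3* BL against 2271 and 2234 in wild type BL, and 1946 and 1808 in *iaa3* mock against 2416 and 2661 in wild type mock. In CPM per kb it stood at 27.8 and 28.4 in *iaa3* BL against 37.2 and 36.5 in wild type BL, and at 31.8 and 29.98 in *iaa3* mock against 40.0 and 38.8 in wild type mock, and the genotypes did not overlap under either treatment. The log2 fold change was −0.39 with BL (adjusted p = 0.000498, standard error 0.06, edgeR's quasi-likelihood F test, Benjamini-Hochberg adjusted) and −0.35 in mock (standard error 0.06, adjusted p = 0.00139, same edgeR test). The differences of *AFB1* and *AFB2* passed the adjusted threshold with each of the 8 libraries left out in turn and under every other scaling, filter and tool tried.

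*TIR1*, the receptor with the highest level, showed no difference that passed the test. It had 3345 and 3868 counts in *iaa3* BL against 4282 and 4150 in wild type BL, and 3924 and 3556 in *iaa3* mock against 4188 and 4294 in wild type mock. Its log2 fold change was 0.03 with BL (95% interval −0.14 to 0.19, adjusted p = 0.779, edgeR's quasi-likelihood F test, Benjamini-Hochberg adjusted) and −0.10 in mock (95% interval −0.26 to 0.06, adjusted p = 0.320, same edgeR test). The intervals thus leave room for a fall of up to 0.14 with BL and 0.26 in mock on the log2 scale. Scaled by library size alone, the mock difference of *TIR1* became −0.22 (adjusted p = 0.0243, edgeR), and that scaling moved the median of all tested genes in this comparison to −0.13.

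*AFB3*, *AFB4* and *AFB5* passed as lower in *iaa3* with BL and did not pass in mock. *AFB5* had 40.2 and 38.1 CPM per kb in *iaa3* BL against 48.1 and 42.9 in wild type BL, with a log2 fold change of −0.22 (adjusted p = 0.0267, edgeR's quasi-likelihood F test, Benjamini-Hochberg adjusted). For *AFB4* the log2 fold change was −0.31 (adjusted p = 0.0133, edgeR), with 231 and 274 counts in *iaa3* BL against 377 and 370 in wild type BL. *AFB3* had 31.9 and 31.5 CPM per kb in *iaa3* BL against 35.1 and 36.1 in wild type BL, and its log2 fold change was −0.16 (adjusted p = 0.0460, edgeR). Libraries of the genotypes did not overlap for these 3 genes with BL, but the calls were less stable than those of *AFB1* and *AFB2*. None of the 3 passed with DESeq2, where the adjusted p-values were 0.0543 for *AFB5*, 0.113 for *AFB4* and 0.163 for *AFB3*. *AFB5* did not pass without wild type BL replicate 1 (−0.13, adjusted p = 0.204, edgeR) or without *iaa3* BL replicate 2 (−0.18, adjusted p = 0.151, edgeR). *AFB4* did not pass without wild type BL replicate 1 (−0.30, adjusted p = 0.0618, edgeR) or without *iaa3* BL replicate 1 (−0.29, adjusted p = 0.0619, edgeR). *AFB3* was lost when any library but a wild type mock library was left out, with adjusted p-values of 0.0723 without *iaa3* mock replicate 1, 0.0740 without *iaa3* mock replicate 2, 0.116 without *iaa3* BL replicate 1, 0.163 without *iaa3* BL replicate 2, 0.0865 without wild type BL replicate 1 and 0.144 without wild type BL replicate 2 (edgeR). In mock the log2 fold changes were 0.07 for *AFB5*, −0.02 for *AFB4* and −0.10 for *AFB3*, with adjusted p-values of 0.477, 0.897 and 0.240 (edgeR).

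With BL, 5 of the 6 receptor genes passed as lower in *iaa3* and 0 as higher, where 24.8% of all tested genes passed as lower and 24.1% as higher. In mock 2 of 6 passed as lower and 0 as higher, against 17.9% and 18.8% of all tested genes. For the higher direction, 0 receptor genes had an unadjusted p under 0.05 by edgeR, and 0 passed with DESeq2, in either comparison, while DESeq2 called 2 lower with BL and 2 in mock. The median log2 fold change of the 6 genes was −0.26 with BL and −0.10 in mock, beside medians of −0.003 and −0.01 over all tested genes.

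Xylem markers moved with *AFB1* and *AFB2*. The summed level of *CESA4*, *CESA7*, *CESA8* (cellulose synthases of the secondary wall) and *XCP1* (a xylem protease) was 10.5 to 11.5 CPM in *iaa3* BL, 14.3 to 14.8 in *iaa3* mock, 38.8 to 43.1 in wild type BL and 46.7 to 58.3 in wild type mock, and all 4 markers passed as lower in *iaa3* under both treatments. Root markers did not move together, with summed levels of 204 to 240 CPM in *iaa3* BL, 192 to 232 in *iaa3* mock, 341 to 353 in wild type BL and 212 to 252 in wild type mock. *PHO1*, a phosphate exporter, passed as higher in *iaa3* with BL (0.43, adjusted p = 0.0407, edgeR) and *PHT1;1*, a phosphate transporter, had a value of 0.09 (adjusted p = 0.506, edgeR). *TIP2;3*, a root aquaporin, had 123 and 67 counts in *iaa3* BL, 61 and 50 in *iaa3* mock, 3953 and 3534 in wild type BL, and 511 and 695 in wild type mock, while *IRT1* was at 0 in all libraries except for 1 count in wild type mock. Root hair markers (*EXPA7*, *COBL9*, *PRP3*, *LRX1*) summed to 21.7 to 33.8 CPM over the *iaa3* libraries and 20.5 to 22.7 over the wild type libraries. *COBL9* passed as higher in *iaa3* with BL (0.89, adjusted p = 0.00316, edgeR) but not in mock. *EXPA7* passed as higher in mock (0.64, adjusted p = 0.0189, edgeR) but not with BL, and *PRP3* and *LRX1* passed under neither treatment. Seed storage markers (*CRA1*, *CRU3*, *SESA1*, *OLEO1*) summed to 32.2 to 203 CPM in *iaa3* BL, 3.40 to 6.53 in *iaa3* mock, 261 to 363 in wild type BL and 114 to 828 in wild type mock, and *CRA1* and *CRU3* passed as lower in *iaa3* in mock. The part of cell-type composition in the receptor differences was not tested.

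BL was applied to ask which genes respond to BR, and in *iaa3* no receptor gene passed the test. *TIR1* came closest, with 72.5 and 72.8 CPM per kb in *iaa3* BL against 66.2 and 60.9 in *iaa3* mock, libraries that did not overlap. Its log2 fold change was 0.19 (95% interval 0.03 to 0.36, unadjusted p = 0.0260, adjusted p = 0.104, edgeR's quasi-likelihood F test, Benjamini-Hochberg adjusted). The other log2 fold changes in *iaa3* were 0.11 for *AFB1*, −0.14 for *AFB2*, 0.11 for *AFB3*, 0.01 for *AFB4* and 0.09 for *AFB5*, with adjusted p-values from 0.178 to 0.953 (edgeR). Thus 0 of 6 passed in either direction, where 9.72% of all tested genes passed as higher and 8.41% as lower. At an unadjusted p under 0.05 edgeR counted 1 receptor gene, and DESeq2 called 0 after adjustment and counted 1 before it.

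In wild type, BL raised *AFB5*, *AFB4* and *AFB3*. *AFB5* had 2710 and 2425 counts in wild type BL against 1952 and 2215 in wild type mock, which is 48.1 and 42.9 CPM per kb against 35.1 and 34.99. The BL libraries lay above the mock libraries, by 0.38 on the log2 scale (standard error 0.07, 95% interval 0.22 to 0.53, adjusted p = 0.00211, edgeR's quasi-likelihood F test, Benjamini-Hochberg adjusted), and this call held under every alternative that kept the adjusted threshold. *AFB4*, the closest relative of *AFB5*, rose by 0.31 (standard error 0.09, adjusted p = 0.0197, edgeR), with 377 and 370 counts in wild type BL against 298 and 339 in wild type mock. *AFB3* rose by 0.18 (standard error 0.06, adjusted p = 0.0485, edgeR), with 35.1 and 36.1 CPM per kb in wild type BL against 31.8 and 31.1 in wild type mock. These 3 changes were smaller than 1.5-fold, so none met the study's threshold. The rise of *AFB4* did not pass with DESeq2 (adjusted p = 0.140), with library size alone (0.20, adjusted p = 0.0917, edgeR), or when any wild type library was left out. Its adjusted p was then 0.0914 without wild type BL replicate 1, 0.0636 without wild type BL replicate 2, 0.0574 without wild type mock replicate 1 and 0.0564 without wild type mock replicate 2 (edgeR). *AFB3* passed in only 2 of 16 alternatives and lost the call whichever of the 8 libraries was left out, with adjusted p-values of 0.0627 to 0.168 (edgeR) and log2 fold changes of 0.16 to 0.20. With library size alone it was 0.07 (adjusted p = 0.369, edgeR), while the median of all tested genes moved to −0.11.

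The remaining receptors did not pass the test for BL in wild type. *AFB1* had 41.9 and 41.8 CPM per kb in wild type BL against 38.4 and 36.4 in wild type mock, a log2 fold change of 0.16 (95% interval −0.01 to 0.34, adjusted p = 0.138, edgeR's quasi-likelihood F test, Benjamini-Hochberg adjusted). *AFB2* had a log2 fold change of −0.10 (adjusted p = 0.266, edgeR) and *TIR1* of 0.06 (adjusted p = 0.562, edgeR). *AFB2* was thus the only receptor with a negative value in both genotypes, although neither value passed. With library size alone its change in wild type was −0.20 (adjusted p = 0.0231, edgeR). In all, 3 of 6 receptor genes passed as higher with BL in wild type, against 17.0% of tested genes, and 0 passed as lower, against 14.7%. None was lower at an unadjusted p under 0.05 by edgeR or by DESeq2, and DESeq2 called 1 higher, *AFB5*. The median over the 6 genes was 0.17 in wild type and 0.10 in *iaa3*, beside −0.01 and 0.01 over all tested genes.

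**Figure D2:**
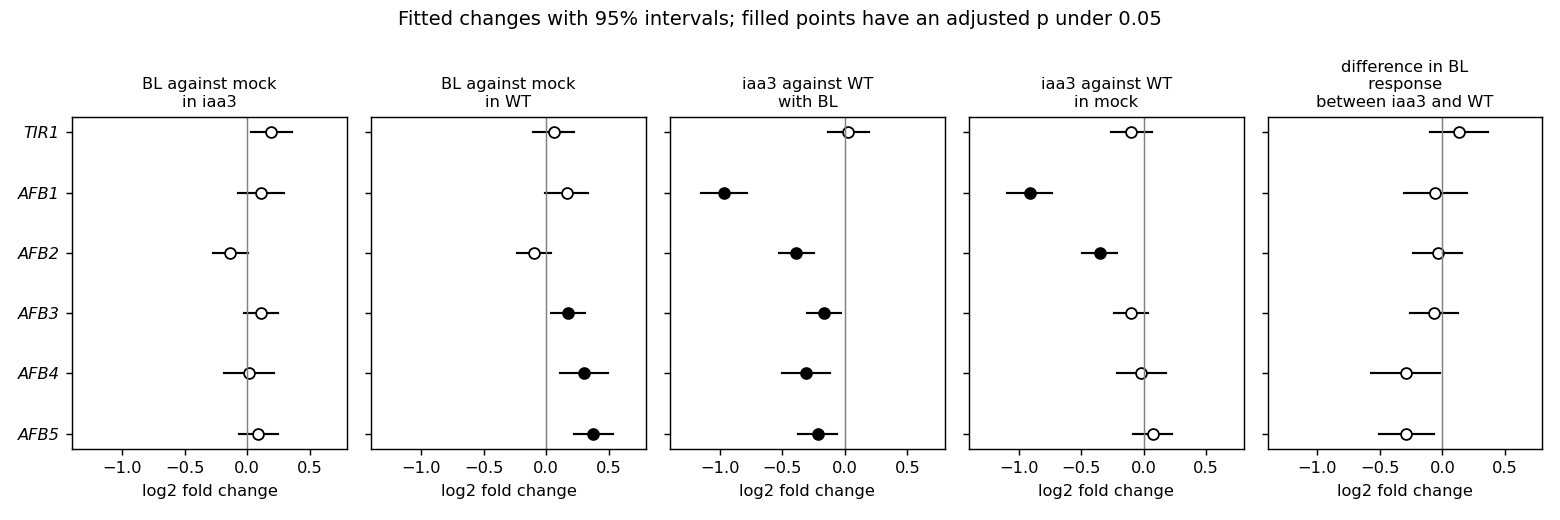
Log2 fold change of each TIR1/AFB gene (points) with its 95% interval (lines) from edgeR, in 5 panels: BL against mock in *iaa3* and in wild type, *iaa3* against wild type with BL and in mock, and the difference in BL response. Filled points passed an adjusted p of 0.05: 0 for BL in *iaa3*, 3 for BL in wild type, 5 and 2 for the genotypes, and 0 for the difference, and in both genotype panels *AFB1* lies furthest from 0.

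Whether the BL response itself differed between the genotypes was tested as an interaction. *AFB5* changed by 0.09 with BL in *iaa3* and by 0.38 in wild type, a difference of −0.29 (95% interval −0.51 to −0.06, unadjusted p = 0.0162, adjusted p = 0.0753, edgeR's quasi-likelihood F test, Benjamini-Hochberg adjusted). *AFB4* changed by 0.01 in *iaa3* and by 0.31 in wild type, a difference of −0.29 (95% interval −0.57 to −0.02, unadjusted p = 0.0384, adjusted p = 0.134, edgeR). For both genes the BL to mock ratios between single *iaa3* libraries all lay below those in wild type, but neither passed after adjustment, so a rise particular to wild type was not shown. Without wild type BL replicate 2 the difference for *AFB5* was −0.38 and passed (adjusted p = 0.0427, edgeR). For *AFB1* the difference was −0.06 (95% interval −0.31 to 0.20, adjusted p = 0.784, edgeR), so its genotype difference was of like size under both treatments within that interval. In all, 0 of 6 receptor genes passed, where 7.63% of tested genes passed with a higher and 9.95% with a lower response in *iaa3*. At an unadjusted p under 0.05 edgeR counted 2 and DESeq2 1, and DESeq2 called 0 after adjustment. The wild type BL libraries enter the BL comparison in wild type and the genotype comparison with BL with opposite signs, so a rise in the one and a fall in the other for *AFB3*, *AFB4* and *AFB5* are not separate observations.

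Because the level of *AFB1* fell in *iaa3* while that of *TIR1* did not pass the test, the make-up of the receptor pool was described per library. *AFB1* made up 11.6% and 10.05% of the summed CPM per kb in *iaa3* BL, 10.6% and 10.9% in *iaa3* mock, 17.4% and 17.96% in wild type BL, and 17.3% and 17.3% in wild type mock. *TIR1* made up 36.2% and 37.3% in *iaa3* BL, 34.8% and 33.9% in *iaa3* mock, 30.1% and 30.05% in wild type BL, and 32.4% and 30.7% in wild type mock. The share of *AFB1* was lower, and that of *TIR1* higher, in every *iaa3* library than in every wild type library. Shares are parts of the same sum, and the level of *TIR1* did not pass the test. Its higher share is thus not an observation separate from the lower levels of other receptors. The whole sum was 200.2 and 195 CPM per kb in *iaa3* BL and 190.4 and 179.8 in *iaa3* mock. It was 240.5 and 233 in wild type BL, and 222 and 210.5 in wild type mock. The sum was thus lower in every *iaa3* library than in every wild type library. It includes *AFB1* and *AFB2*, so it is not separate from their falls. The ratio of *AFB1* to *TIR1* in CPM per kb, in which the scaling of a library cancels, was 0.270 to 0.322 in *iaa3* and 0.535 to 0.598 in wild type. Against each of the other receptors the ratio of *AFB1* in CPM per kb was likewise lower in all *iaa3* libraries, for example 0.622 to 0.730 against *AFB3* in *iaa3* and 1.16 to 1.21 in wild type. *AFB5* made up 20.1% and 19.5% in *iaa3* BL, 19.6% and 20.2% in *iaa3* mock, 20.002% and 18.4% in wild type BL, and 15.8% and 16.6% in wild type mock, lowest in wild type mock.

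**Figure D3:**
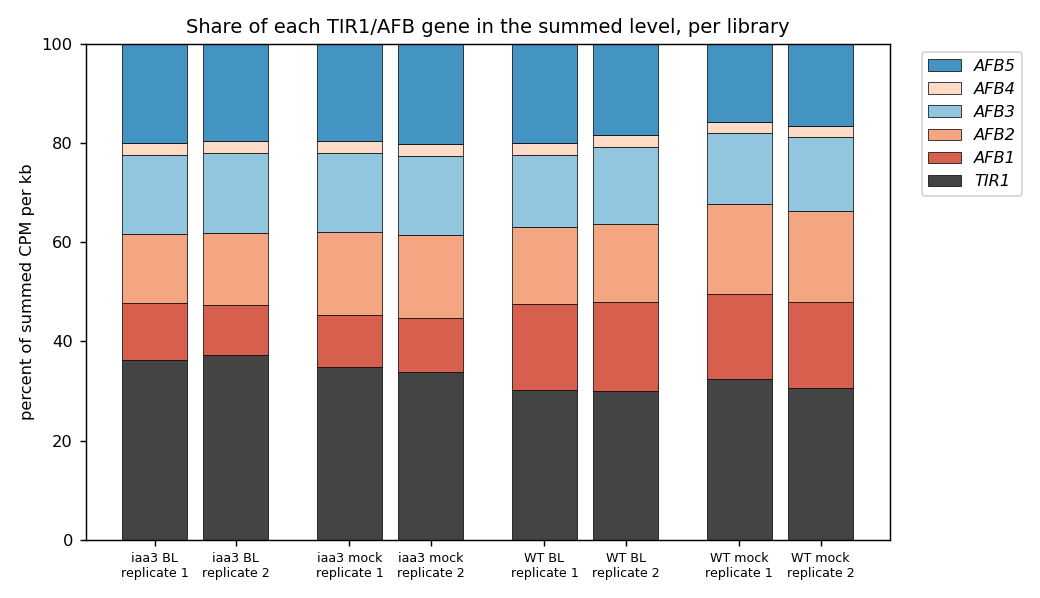
Share of each TIR1/AFB gene in the summed CPM per kb of the family (stacked bars, percent, 0 to 100) for each of the 8 libraries. The *AFB1* segment is 10.05% to 11.6% in *iaa3* libraries and 17.3% to 17.96% in wild type libraries, and the *TIR1* segment 33.9% to 37.3% in *iaa3* and 30.05% to 32.4% in wild type.

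The promoter of *AFB5* is shown because this gene responded most to BL in wild type. For all TIR1/AFB genes, the 300 bases before the annotated start (RefSeq, TAIR10.1) were searched on both strands for TGTCTC (the auxin response element), TGTCGG (a variant of it), CACGTG (the G-box) and CACATG (an E-box of the HUD type). The sequence lies on chromosome 5, 20336672 to 20336971, minus strand, and capitals mark TGTCTC read on the other strand:
AFB5: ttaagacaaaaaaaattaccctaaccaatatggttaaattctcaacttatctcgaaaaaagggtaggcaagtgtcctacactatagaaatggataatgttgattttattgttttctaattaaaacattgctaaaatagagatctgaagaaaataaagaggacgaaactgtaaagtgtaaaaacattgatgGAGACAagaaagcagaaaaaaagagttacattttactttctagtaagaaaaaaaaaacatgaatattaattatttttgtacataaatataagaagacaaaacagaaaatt
TGTCTC was found in 12.9% of 26640 such promoters and, among the receptors searched, in that of *AFB5*, 110 bases before the start. CACATG was found in 13.1% of promoters and, among the receptors searched, in those of *AFB2* (9 bases before the start) and *AFB3* (172 bases before it). TGTCGG (4.9% of promoters) and CACGTG (7.2%) were in none of these windows. These matches describe the letters only.

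Receptors work in a complex. Genes of that complex, its regulators, the chaperones of TIR1 and other F-box genes were followed in lists of 33 genes, of which 32 passed the filter. The SCF core (*ASK1* and *ASK2*, which hold the F-box protein, *CUL1*, the scaffold, and the RING subunits *RBX1A* and *RBX1B*, the last with too few counts to test) had 4 tested genes, of which 0 passed in *iaa3* against wild type under either treatment by edgeR. At an unadjusted p under 0.05 edgeR counted 0 under either treatment, and DESeq2 counted 0 with BL and 1 in mock and called 0 after adjustment. *CUL1* had 381 and 367 CPM in *iaa3* BL against 338 and 337 in wild type BL (log2 fold change 0.15, adjusted p = 0.153, edgeR), and *ASK1* had a log2 fold change of 0.06 (adjusted p = 0.535, edgeR). In mock these were 0.01 and 0.15, with adjusted p-values of 0.943 and 0.125 (edgeR). With BL, 24.1% of all tested genes passed as higher in *iaa3*. Of the 7 genes listed with the RUB cycle, which activates cullins, 4 did so (*AXR1*, *RUB1*, *RUB2* and *CAND1*, by 0.21 to 0.37). So did 4 of 10 genes of the COP9 signalosome, which reverses that step (*CSN1*, *CSN2*, *CSN4* and *CSN8*, by 0.21 to 0.26). *RUB2* fell with BL in wild type (−0.50, adjusted p = 0.00169, edgeR) and had a value of 0.03 for BL in *iaa3* (adjusted p = 0.873, edgeR). By list, 6 chaperones, 4 genes of the RUB cycle, 4 of the COP9 signalosome, 2 other F-box genes and 0 of the SCF core passed as higher with BL. Over the 32 genes, 16 passed as higher and 1 as lower with BL, and 4 as higher and 1 as lower in mock, where the shares over all tested genes were 24.1% and 24.8% with BL and 18.8% and 17.9% in mock. The count with BL was 11 in all with DESeq2, 10 without *iaa3* BL replicate 1, 11 without *iaa3* BL replicate 2 and 11 without wild type BL replicate 1. The lists' median log2 fold changes were 0.06 for the SCF core, 0.21 for the RUB cycle and 0.13 for the COP9 signalosome with BL, beside −0.003 over all tested genes and −0.26 for the receptors.

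The chaperones that assist TIR1, HSP90 and its co-chaperone SGT1, showed larger differences. All 6 passed as higher in *iaa3* with BL, as did 24.1% of all tested genes. *HSP90.1*, the heat-inducible form, had 4571 and 6480 counts in *iaa3* BL, 1272 and 1057 in *iaa3* mock, 888 and 867 in wild type BL, and 1629 and 1685 in wild type mock. Its log2 fold change was 2.90 between the genotypes with BL (adjusted p = 1.78e-08) and −0.43 in mock (adjusted p = 0.0112), both by edgeR's quasi-likelihood F test, Benjamini-Hochberg adjusted. BL raised it by 2.48 in *iaa3* and lowered it in wild type (−0.84), a difference in response of 3.33 (adjusted p = 7.62e-07, edgeR). *HSP90.2* was higher by 1.01 with BL (adjusted p = 6.79e-07, edgeR), and reads of *HSP90.2*, *HSP90.3* and *HSP90.4*, which are near-identical, may have been split between them. *SGT1A* was higher in *iaa3* under both treatments, by 1.64 with BL (adjusted p = 3.58e-06, edgeR) and by 1.04 in mock (adjusted p = 0.000174, edgeR). Heat markers rose with BL in *iaa3*, as did *HSP90.1* and *HSP90.2* (0.53, adjusted p = 0.000393, edgeR). *HSP90.3* and *HSP90.4* did not move with them. For BL in *iaa3* their values were 0.05 and 0.07, which did not pass, and both fell with BL in wild type (−0.44, adjusted p = 0.00234, and −0.26, adjusted p = 0.0336, edgeR). The summed level of *HSP101*, *HSP17.6II*, *HSP18.2* and *HSP23.6-MITO* was 271 to 300.3 CPM in *iaa3* BL, 23.1 to 24.0 in *iaa3* mock, 24.4 to 30.1 in wild type BL and 31.5 to 38.8 in wild type mock, and that of 4 hypoxia markers (*ADH1*, *PDC1*, *HB1*, *SUS4*) was 4253 to 4573, 852 to 1738, 133 to 185 and 142 to 727 CPM in the same groups. Their part in the differences with BL, those of the receptors included, was not tested.

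Among other F-box genes, *COI1*, the jasmonate receptor and closest relative of the TIR1/AFB family, went the other way from the receptors. It had 58.5 and 58.7 CPM in *iaa3* BL against 45.6 and 43.4 in wild type BL, higher by 0.40 on the log2 scale (adjusted p = 0.000958, edgeR's quasi-likelihood F test, Benjamini-Hochberg adjusted), while in mock the value was 0.08 (adjusted p = 0.416, edgeR). *AUF1*, an F-box gene that auxin induces, had 484 and 506 counts in *iaa3* BL, 681 and 668 in *iaa3* mock, 1160 and 1177 in wild type BL, and 623 and 785 in wild type mock. It rose with BL in wild type by 0.81 (adjusted p = 1.3e-05, edgeR), had a value of −0.20 in *iaa3* (adjusted p = 0.114, edgeR), and differed in response by −1.01 (adjusted p = 0.000135, edgeR). With BL it was lower in *iaa3* by a log2 fold change of −0.98, close to that of *AFB1*, but in mock it was at 0.03 (adjusted p = 0.813, edgeR), where *AFB1* was at −0.91. Its paralog *AUF2* had few reads, with 51 and 57 counts in *iaa3* BL, 14 and 13 in *iaa3* mock, 4 and 5 in wild type BL, and 33 and 17 in wild type mock. *AUF2* was higher in *iaa3* with BL by 3.80 (adjusted p = 3.63e-05, edgeR), rose with BL in *iaa3* by 2.23 (adjusted p = 0.00152, edgeR) and fell in wild type (−2.38, adjusted p = 0.00381, edgeR). *SKP2A*, which in *Arabidopsis* targets cell cycle factors, fell with BL in *iaa3* by 0.59 on the log2 scale (adjusted p = 0.00337, edgeR) and had a value of −0.14 between the genotypes with BL (adjusted p = 0.326, edgeR).

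**Figure D4:**
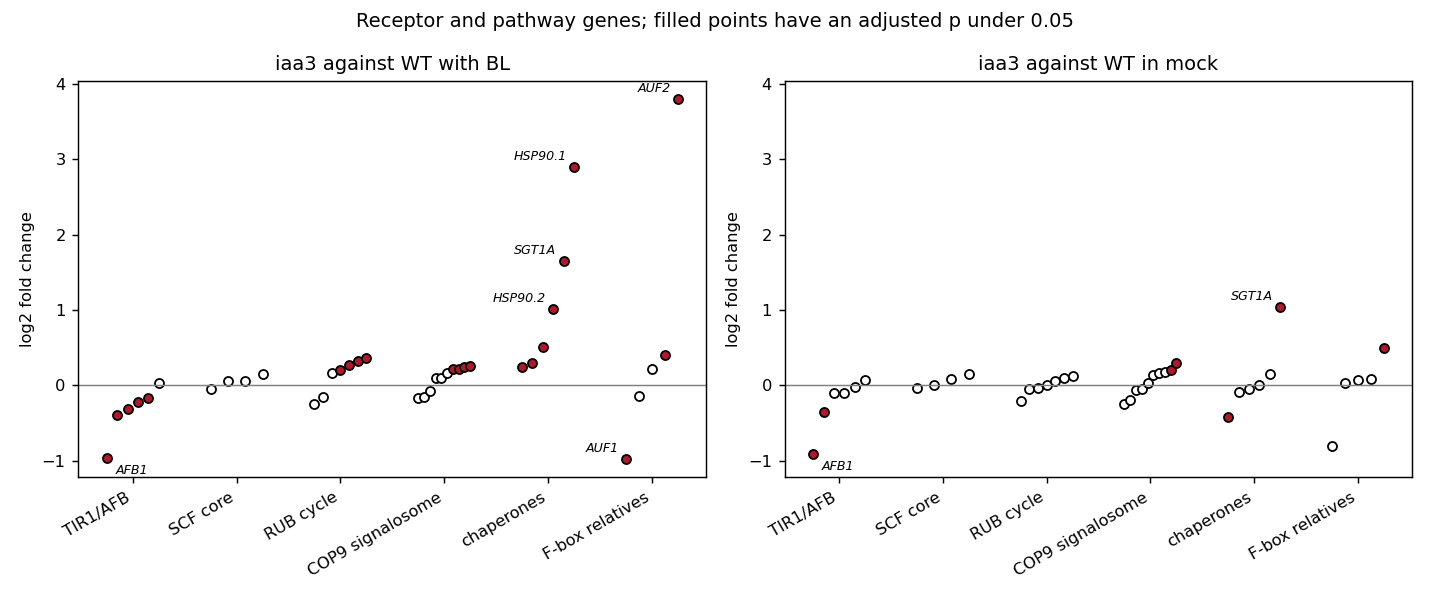
Log2 fold change of *iaa3* against wild type (vertical axis) with BL (left) and in mock (right) for the 6 TIR1/AFB genes and the 32 tested genes of the lists, 1 point per gene, filled where the adjusted p was under 0.05. Names are given where a gene also met the study's threshold, and *AFB1* is the only receptor named, at −0.97 and −0.91.

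The loci of miR393 gave almost no reads in these libraries, which were not made to capture small RNAs. *MIR393A* had 1 count in 1 wild type mock library and *MIR393B* had 3 counts in 1 wild type BL library, and both were at 0 in the other libraries, including all 4 *iaa3* libraries. A count of 0 allows up to 3 counts, or 0.120 to 0.172 CPM per library, so a difference in miR393 between the groups was not detectable at this depth. The part of miR393 in the receptor differences was not tested.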

How the data were processed

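RNA-Seq libraries of whole etiolated seedlings were analysed, 2 in each of 4 groups set by the sample labels. The table deposited by the authors holds raw counts of reads on each locus, without normalization. The submitters' processing notes name CASAVA 1, TopHat, HTSeq and TAIR9. The annotation release, strand use and the fate of multi-mapping reads are not given in the sources used here. Library totals ranged from 18107519 to 23183988 (median 22316700), and each group's chi-square exceeded counting noise. Limits from counts of 0 cover counting error only.

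Tests used edgeR 4.0.16 under R 4.3.3, with limma 3.58.1 loaded. Loci were filtered with filterByExpr by group, scaled with TMM factors (0.948 to 1.08) and fitted in 1 quasi-likelihood model over all 8 libraries, with 1 coefficient per group, so that groups shared 1 estimate of the spread. A gene passed where its p-value, adjusted by Benjamini-Hochberg over all 20415 tested loci, was under 0.05. The study's own threshold, 1.5-fold with p under 0.01, which names no adjustment, is given beside it. Standard errors were derived from the F statistic. Levels between genes used CPM per kb of RefSeq exons. The pipeline was tested on simulated data with known answers.

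Coordinates, symbols and sequences were read from RefSeq's TAIR10.1 copy, matched by locus name, since the count table holds no coordinates. All 6 receptors matched, *AFB1* under the symbol GRH1. miR393 sites were found by the fewest unpaired bases over each transcript. Genes named besides the receptors and *IAA3* were those of the pathway lists that met the study's threshold in any comparison of 2 groups, *CUL1*, *ASK1*, *COI1*, the miR393 loci and genes of like pattern. Further genes of the lists that passed the adjusted threshold, the marker genes and the genes next to the receptors were named after their values were seen. The members and lists were chosen with earlier results of these data known. Alternatives were DESeq2 1.42.0, library size alone, RLE factors, a minimum of 10 counts per library or no filter, fits on only the groups compared, the study's threshold, a replicate block, coding in place of exon length, and each library left out in turn.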

Additional observations from a re-analysis of the deposited data

How the results depend on the processing

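The number of receptor genes that passed depended on the threshold and tool. For BL in wild type it was 3, against 1 with DESeq2, 0 under the study's threshold and 1 to 2 with 1 library left out. For *iaa3* against wild type with BL it was 5, against 2 with DESeq2, 1 under the study's threshold and 2 to 5 with 1 library left out. In mock it was 2, against 4 with library size alone, 1 under the study's threshold and 2 with any library left out. For the difference in response it was 0, and 1 (*AFB5*) without wild type BL replicate 2. For BL in *iaa3* it stayed 0 under all alternatives run. Replicate numbers were not treated as pairs in the main fit. Deviations of same-numbered libraries correlated by −0.063 to 0.24, and the highest value was between *iaa3* mock and wild type mock. The hypoxia markers were higher in replicate 1 than in replicate 2 of both mock groups. A replicate block gave 2, 0, 4, 2 and 0 receptor genes for BL in wild type, BL in *iaa3*, the genotypes with BL, the genotypes in mock and the difference, losing *AFB3* in both comparisons where it had passed.

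The receptor fold changes that changed sign were near 0, and none passed. With library size alone, *TIR1* became −0.039 for BL in wild type and −0.032 between the genotypes with BL, *AFB4* −0.030 for BL in *iaa3*, *AFB5* −0.051 between the genotypes in mock, and the difference in response 0.0047 (*AFB1*) and 0.024 (*AFB2*). With only the groups compared, *AFB4* became −0.0034 for BL in *iaa3*. With 1 library left out, *TIR1* ranged from −0.0035 to 0.14 for BL in wild type and from −0.0046 to 0.053 between the genotypes with BL. *AFB1* ranged from −0.019 to 0.23 for BL in *iaa3* and from −0.18 to 0.064 for the difference, *AFB2* from −0.078 to 0.0049 for the difference, and *AFB4* from −0.037 to 0.062 for BL in *iaa3* and from −0.067 to 0.032 between the genotypes in mock. The cause of these shifts was not tested. *AFB1* between the genotypes ranged from −1.09 to −0.84 with BL and from −1.03 to −0.87 in mock over all alternatives. Where a library was left out, the remaining one was assumed to vary like the other groups. Among the receptors *AFB4* had the fewest counts, 231 to 377. Genes described that had fewer still included *AUF2* (4 to 57 counts), *RBX1B* and the miR393 loci. Among the markers they included *CESA7* (43 to 263), *CESA8* (18 to 224), *OLEO1* (11 to 109), *SESA1* (0 to 60) and *IRT1*.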

Other observations

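Genes with a pattern most like each receptor that passed in any comparison, which leaves out *TIR1*, over the 8 libraries were listed by Pearson's r of log2 CPM among 13025 genes, as a description, since the libraries fall into 4 groups and share their scaling. For *AFB1* these were AT1G17430 (r = 0.997), *PGL2* (AT3G49360, 0.995) and AT3G62790 (0.995). For *AFB2* they were *EML4* (0.994), *APT3* (0.993) and AT5G23955 (0.993), and for *AFB3* *KNAT6* (0.985), a homeobox gene, *PIF4* (0.984), a bHLH factor of shade and warmth responses, and *GUS1* (0.984). For *AFB4* they were AT5G65687 (0.989), *GATL6* (0.989) and *MEE31* (0.987), and for *AFB5* AT5G42620 (0.985), *KIN10* (0.982), a SnRK1 kinase subunit, and AT5G44530 (0.981). Among the receptors themselves r was highest for *AFB3* with *AFB4* (0.899) and *AFB1* with *AFB2* (0.885), and lowest for *TIR1* with *AFB2* (0.025).

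Of the 20 tested loci nearest to *AFB1*, 10 on each side, 2 passed as lower and 4 as higher in *iaa3* with BL, and 4 and 3 in mock, with median log2 fold changes of 0.04 and −0.0046. Of the 20 nearest to *AFB2*, 8 passed as lower and 3 as higher with BL, the adjacent AT3G26815 having values of −2.81 with BL and −2.00 in mock, and of those nearest to *AFB5* 7 and 1. For *TIR1* the counts with BL were 5 and 4, for *AFB3* 5 and 4, and for *AFB4* 3 and 6. In mock the counts were 4 and 4 for *TIR1*, 5 and 3 for *AFB2*, 6 and 5 for *AFB3*, 3 and 2 for *AFB4*, and 4 and 1 for *AFB5*. Of all tested genes, 24.8% passed as lower and 24.1% as higher with BL, and 17.9% and 18.8% in mock. Next to *TIR1*, AT3G62990 had a log2 fold change of −7.32 with BL and −7.33 in mock, while *TIR1* itself did not pass. Differences between the strains other than the *iaa3* allele were not tested. The neighbours were examined after the data were seen.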
